A study of Mus musculus with 4 samples.

Results

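The genes described here mark macrophages, dendritic cells and neutrophils, the phagocytes of the innate immune system. They were chosen by name, as 33 gene symbols, of which 32 had a row among the 23074 symbols measured in mouse colon, and 31 were abundant enough to be tested. The symbol Spi1, for the transcription factor PU.1, had no row of its own; the files carry its older symbol Sfpi1, which is described apart and not counted. Bulk RNA of adult mice aged 6 weeks was sequenced in 4 libraries, each from the 2 cm of colon that follow the caecum. The 2 mutant libraries carried the genotype Nkx2.2flox/flox; Villin-Cre/+, in which Cre recombinase is made from the Villin promoter, active in the gut epithelium. The 2 control libraries were Nkx2.2flox/+ with no Cre listed, so a floxed Nkx2-2 allele was present in both groups. The strain is labelled as mixed, and the labels state neither separate nor pooled animals, so p-values describe only how far the libraries spread, which may be technical.

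Colonic macrophages are renewed mostly from blood monocytes under the growth factor receptor CSF1R, sit beneath the epithelium, and clear bacteria and dying cells without strong inflammation. Dendritic cells carry antigen to lymphocytes and depend on the receptor FLT3, while neutrophils are short-lived cells that are scarce in a healthy colon wall. PU.1 is a main regulator of myeloid development and binds a purine-rich element known as the PU box, GAGGAA. These cells come from blood precursors, whereas the Villin promoter is an epithelial one.

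Levels are FPKM, which adjust fragments for transcript length and for how many mapped in each library and allow comparison between genes. Between libraries an offset remained, since median ratio size factors on these FPKM were 0.866 and 1.01 in the mutants and 1.09 and 1.04 in the controls. Sequencing depth relative to control 1 was 0.464 in mutant 1, 1.03 in mutant 2 and 1.13 in control 2. The median number of fragments behind a myeloid gene, read from the width of its deposited interval, was 103.5 in mutant 1, 369 in mutant 2, 456 in control 1 and 356 in control 2. The targeted gene Nkx2-2 stood at 0.125 and 0.351 FPKM in the mutants, against 0.724 and 0.609 FPKM in the controls. These values rest on 1.0, 4.66, 16.4 and 15.4 fragments in the same order. Its mean of 0.452 FPKM was under the minimum of 0.5 FPKM, so it was not tested. The tissue label was borne out by markers of colon epithelium, 12 of 13 measured, whose summed level was 23988 and 23315 FPKM in the mutants and 21788 and 30047 FPKM in the controls. Most of each sum was Car1, at 17320 and 16278 FPKM in the mutants and 15112 and 22062 FPKM in the controls.

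The promoters below belong to genes whose levels followed different courses across the 4 libraries: C1qb and C1qc, complement genes that varied together; Laptm5, which stood high in control 1 alone; and Mrc1, which was level between the controls. Each is the 250 bases before the start site, 5′ to 3′ on the gene's strand, from RefSeq on GRCm38.p6, with each PU box (GAGGAA, or TTCCTC where it lies on the other strand) in capitals.
C1qb, chr4:136886201-136886450, minus strand: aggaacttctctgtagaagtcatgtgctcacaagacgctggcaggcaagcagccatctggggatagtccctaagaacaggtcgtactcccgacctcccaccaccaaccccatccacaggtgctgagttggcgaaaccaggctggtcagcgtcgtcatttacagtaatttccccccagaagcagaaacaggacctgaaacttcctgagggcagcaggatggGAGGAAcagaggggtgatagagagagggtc
C1qc, chr4:136892915-136893164, minus strand: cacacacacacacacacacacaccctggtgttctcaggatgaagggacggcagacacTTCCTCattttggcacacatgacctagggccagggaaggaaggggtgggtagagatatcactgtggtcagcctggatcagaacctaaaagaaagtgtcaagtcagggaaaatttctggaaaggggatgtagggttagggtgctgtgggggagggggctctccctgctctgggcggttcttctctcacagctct
Laptm5, chr4:130913066-130913315, plus strand: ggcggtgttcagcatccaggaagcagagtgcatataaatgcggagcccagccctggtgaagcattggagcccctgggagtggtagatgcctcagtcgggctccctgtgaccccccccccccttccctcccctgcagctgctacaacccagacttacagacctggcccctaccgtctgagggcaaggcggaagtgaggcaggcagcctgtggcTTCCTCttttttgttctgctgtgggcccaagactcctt
Mrc1, chr2:14229164-14229413, plus strand: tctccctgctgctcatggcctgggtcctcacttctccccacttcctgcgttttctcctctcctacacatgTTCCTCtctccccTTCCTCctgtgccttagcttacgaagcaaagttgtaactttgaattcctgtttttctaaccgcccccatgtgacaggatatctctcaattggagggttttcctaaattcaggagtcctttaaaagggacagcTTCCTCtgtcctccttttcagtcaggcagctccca
Promoters of 24 of the myeloid genes matched the RefSeq table by symbol, and the PU box, searched on both strands, stood in 13 of their 27 promoters (48.1%), against 23.3% of all 32851 promoters of the same length. Counted from the start site, the box began at position −30 in C1qb, −193 in C1qc and −38 in Laptm5, and Mrc1 held 3 of them. These are matches of letters and do not show binding. The promoters printed above all hold the box, so they do not stand for the 27, of which 13 held it.

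None of the 31 tested genes differed between mutants and controls by limma with Benjamini-Hochberg adjustment over 13997 genes, where 0.0643% of all genes passed at 0.05 (0.0357% higher and 0.0286% lower). Over all genes that was 5 higher and 4 lower as deposited, and 3 higher and 0 lower after median ratio rescaling. The smallest adjusted p was 0.825. At an unadjusted p under 0.05, 5 genes were lower in the mutants (Lst1, Clec10a, Batf3, S100a9 and Laptm5) and 0 higher, against 4.12% and 0.7% of all genes. After median ratio rescaling 2 genes were lower at that level (Lst1 and Clec10a), against 1.83% of all genes, and after quantile normalization the same 2, against 1.89%. In the authors' deposited table, made with DESeq, 0 of 32 passed after adjustment (0.0384% of its 20834 genes did, 0.0192% higher and 0.0192% lower) and 0 of 32 had an unadjusted p under 0.05 (0.432%). The log2 change in the authors' deposited table was below 0 for 28 of 32, against 39.0% of all its genes.

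Most of these genes shared an order of the 4 libraries. Mutant 1 was the lowest of the 4 libraries in 28 of 31 myeloid genes (66.3% of all tested genes), and control 1 was the highest in 25 of 31 (45.6% of all). Mutant 1 was below both controls in 28 (73.8% of all) and below mutant 2 in 29 (76.1% of all). Mutant 1 lowest and control 1 highest held at once in 23 of 31, or 74.2%, against 33.2% of all tested genes. Mutant 2 and control 2 lay between them, with mutant 2 above control 2 in 24 of 31 (44.1% of all). Both mutants lay below both controls in 6 genes, or 19.4%, against 35.1% of all tested genes, and above both in 0, against 3.39%. The genes without overlap were Itgax, S100a9, Ctss, Batf3, Lst1 and Clec10a. These orders of libraries were noticed in the data and have no test, and no cause of them was tested. In bulk tissue, fewer cells of a type and less RNA per cell cannot be told apart.

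**Figure D1:**
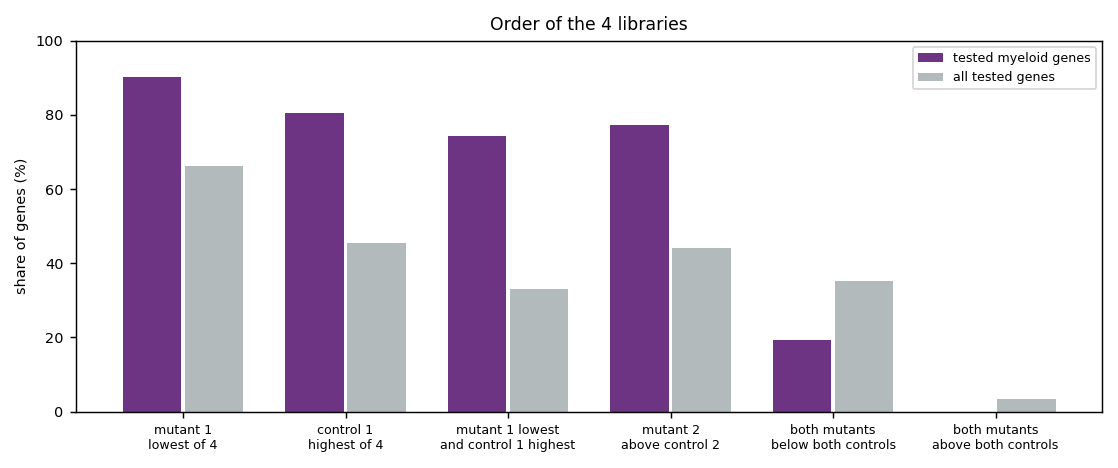
Share of genes (%, bars from 0) in which the 4 libraries stood in the named order, for the 31 tested macrophage, dendritic cell and neutrophil genes and for all 13997 tested genes. Mutant 1 was lowest and control 1 highest together in 74.2% of the myeloid genes and 33.2% of all genes, while both mutants lay below both controls in 19.4% and 35.1%.

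Across the 31 genes the median log2 change of mutant over control was −0.43, beside −0.17 for all tested genes, and 30 genes had a change below 0 (82.6% of all genes did). The list's median was −0.25 after median ratio rescaling and −0.25 after quantile normalization, beside 0.0052 and 0.0013 for all genes, and −0.24 in the authors' deposited table, beside 0.025. The median difference on the log2(FPKM + 0.5) scale was −0.98 for mutant 1 minus control 1 and −0.51 for mutant 1 minus control 2. It was −0.35 for mutant 2 minus control 1 and 0.14 for mutant 2 minus control 2. Within the groups it was −0.62 for mutant 1 minus mutant 2 and 0.50 for control 1 minus control 2. The median gap between libraries of the same genotype was thus wider than the gap of mutant 2 from either control. Over all tested genes the same 6 medians were −0.31, −0.25, −0.09, −0.03, −0.21 and 0.06, in the order just given. Which library was set against which decided the size and, for mutant 2 against control 2, the sign of the list's median.

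**Figure D2:**
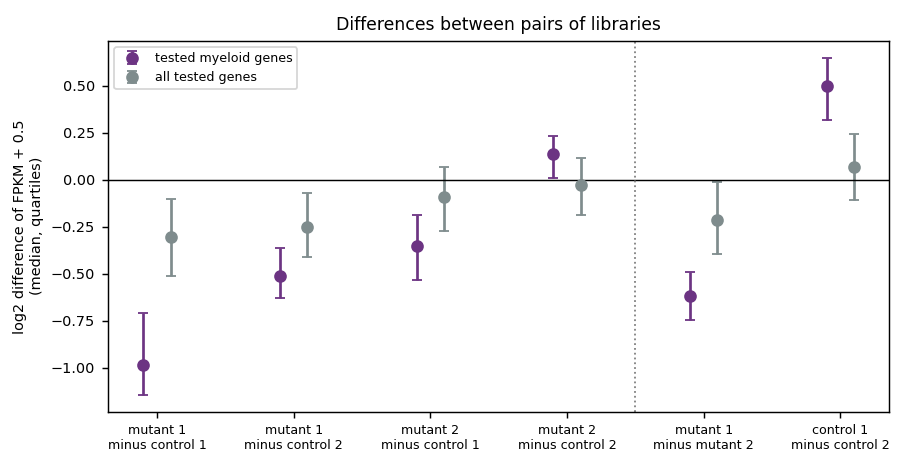
Median (point) and quartiles (bars) of the log2 difference of FPKM + 0.5 for each pair of libraries, over the 31 tested myeloid genes and over all tested genes; the dotted line parts pairs across genotypes from pairs within a genotype. The myeloid medians run from −0.98 (mutant 1 minus control 1) to 0.14 (mutant 2 minus control 2) across genotypes, and stand at −0.62 and 0.50 within them.

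The growth factor receptors were alike in this order. Csf1r, the receptor for the macrophage growth factors CSF1 and IL-34, had 13.0 and 20.2 FPKM in mutants 1 and 2, against 26.2 and 19.5 FPKM in controls 1 and 2. Its log2 change was −0.47 (SE 0.26, 95% interval −1.06 to 0.12, limma adjusted p = 0.825), and mutant 2 lay between the controls. Csf2rb, the shared beta chain of the receptors for GM-CSF, IL-3 and IL-5, had 2.51 and 4.21 FPKM in the mutants and 5.51 and 3.79 FPKM in the controls; 18.8% of its 50-base stretches are shared, chiefly with Csf2rb2. Flt3, the receptor that dendritic cells depend on, had 0.580 and 1.03 FPKM in the mutants and 1.91 and 0.887 FPKM in the controls, from 14 fragments in mutant 1. Control 1 alone was high for Flt3, at 2.15 times control 2.

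Surface receptors and adhesion molecules fell into genes that were level between the controls and genes that were not. Mrc1, the mannose receptor of resident macrophages, had 5.03 and 6.82 FPKM in the mutants and 6.61 and 6.63 FPKM in the controls. Cd163, which takes up hemoglobin bound to haptoglobin, had 2.31 and 3.75 FPKM in the mutants and 3.31 and 3.24 FPKM in the controls. Emr1, which encodes the macrophage marker F4/80, had 10.4 and 16.5 FPKM in the mutants and 17.2 and 15.2 FPKM in the controls. In all 3, mutant 1 was the low library and mutant 2 lay close to both controls. The log2 changes of Mrc1 and Cd163 were −0.16 (SE 0.22) and −0.13 (SE 0.26), beside −0.17 for all genes, and both were above 0 after rescaling of the libraries.

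Ms4a7, a membrane protein of macrophages, was the most even of the abundant genes, at 35.0 and 36.6 FPKM in the mutants and 41.7 and 32.3 FPKM in the controls. Its log2 change was −0.03 (SE 0.19, interval −0.48 to 0.41), and here mutant 1 was not the lowest. Cd14, a co-receptor for bacterial lipopolysaccharide, had 31.0 and 47.0 FPKM in the mutants and 57.0 and 38.3 FPKM in the controls. The integrin chain gene Itgam, which encodes CD11b, had 4.95 and 6.21 FPKM in the mutants and 8.49 and 6.21 FPKM in the controls, so mutant 2 and control 2 were equal at this precision. Its neighbour on chromosome 7, Itgax, encodes CD11c of dendritic cells and gut macrophages. Itgax had 1.84 and 2.76 FPKM in the mutants and 3.10 and 3.62 FPKM in the controls, without overlap, and a log2 change of −0.48 (SE 0.26, limma adjusted p = 0.825); it shares 9.63% of its 50-base stretches, chiefly with Itgad.

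The lectin genes were low. Clec10a, a galactose-type lectin of macrophages and dendritic cells, had 2.55 and 3.05 FPKM in the mutants and 6.02 and 4.06 FPKM in the controls. The groups did not overlap, and the log2 change was −0.73 (SE 0.25, interval −1.31 to −0.14, limma unadjusted p = 0.0204, adjusted p = 0.825). Of the 50-base stretches of its transcript, 16.7% also occur in the transcript of another gene, chiefly its near copy Mgl2, so its reads may have been shared out between them. Cd209a, a lectin of monocyte-derived dendritic cells, had 1.46 and 1.26 FPKM in the mutants and 2.03 and 1.29 FPKM in the controls. Siglech, a marker of plasmacytoid dendritic cells, had 0.392 and 0.206 FPKM in the mutants and 0.728 and 0.484 FPKM in the controls, from 6 and 7 fragments in the mutants. It lay under the minimum of 0.5 FPKM and was not tested.

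**Figure D3:**
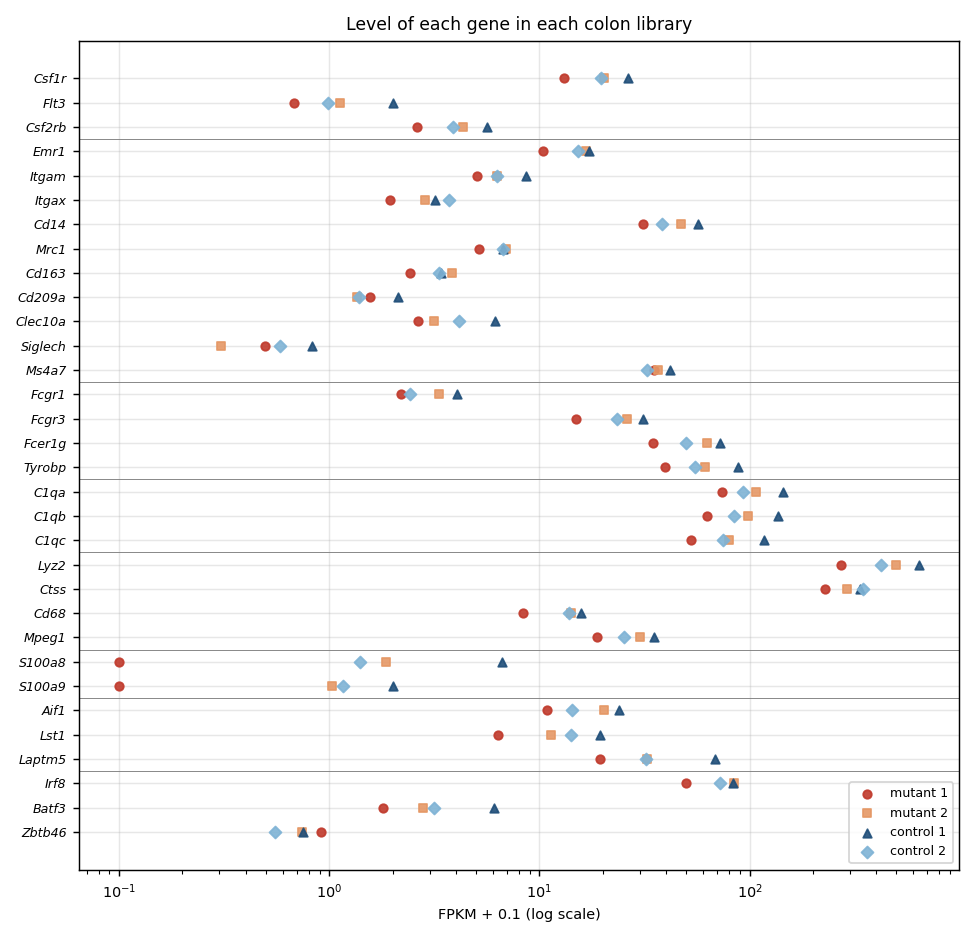
Level of the 32 measured genes in each library (FPKM + 0.1, log axis), with one row per gene and lines between functional groups; circles and squares are the mutants, triangles and diamonds the controls. The circle of mutant 1 lies leftmost in most rows and the triangle of control 1 rightmost, while mutant 2 and control 2 often coincide, as in Itgam and Laptm5.

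Immunoglobulin Fc receptors and the adaptors that carry ITAM signalling motifs had mutant 1 lowest and control 1 highest in all 4 genes. Tyrobp, the adaptor DAP12, had 39.4 and 61.5 FPKM in the mutants and 88.2 and 54.9 FPKM in the controls. Fcer1g, the common gamma chain of Fc receptors, had 34.8 and 62.9 FPKM in the mutants and 72.0 and 49.9 FPKM in the controls. For both, mutant 2 was above control 2, and the groups overlapped. The log2 changes were −0.50 (SE 0.28) for Tyrobp and −0.35 (SE 0.30) for Fcer1g, both with a limma adjusted p of 0.825.

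Fcgr3, a low-affinity receptor for IgG that signals through the Fcer1g chain, had 14.9 and 25.9 FPKM in the mutants and 31.1 and 23.3 FPKM in the controls. Fcgr1, the high-affinity IgG receptor, had 2.10 and 3.22 FPKM in the mutants and 3.96 and 2.32 FPKM in the controls. Mutant 1 and control 2 were thus close for Fcgr1, and mutant 2 was 1.38 times control 2. Fcgr3 shares 12.8% of its 50-base stretches with other genes, chiefly Fcgr2b.

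The 3 chains of C1q, the recognition protein of the classical complement pathway and a product of tissue macrophages, lie side by side on chromosome 4 of mm9, with C1qb at 136436061 to 136442092, C1qc at 136445717 to 136448829 and C1qa at 136451831 to 136454759. C1qa had 74.1 and 107.6 FPKM in the mutants and 144.2 and 93.4 FPKM in the controls. C1qb had 62.5 and 98.4 FPKM in the mutants and 135.8 and 84.2 FPKM in the controls. C1qc had 52.8 and 80.0 FPKM in the mutants and 116.6 and 74.8 FPKM in the controls. The chains kept nearly the same proportion while their level varied between libraries. The ratio of C1qa to C1qc was 1.40 and 1.34 in the mutants and 1.24 and 1.25 in the controls, and that of C1qa to C1qb was 1.19 and 1.09 in the mutants and 1.06 and 1.11 in the controls. Their log2 changes ran from −0.52 for C1qc (SE 0.27, interval −1.14 to 0.10) to −0.38 for C1qa (SE 0.26), and mutant 2 lay between the controls for each chain.

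Genes of the lysosome and of bacterial killing held the highest levels. Lyz2, the lysozyme of macrophages and neutrophils, had 271.3 and 498.5 FPKM in the mutants and 643.0 and 421.8 FPKM in the controls. Its log2 change was −0.50 (SE 0.31, interval −1.20 to 0.20), and 15.4% of its 50-base stretches are shared, chiefly with the near copy Lyz1. Ctss, the lysosomal protease cathepsin S that trims the class II invariant chain, had 228.5 and 291.9 FPKM in the mutants and 333.7 and 347.4 FPKM in the controls. Ctss was the most abundant gene without overlap between the groups, with controls that differed little, a log2 change of −0.40 (SE 0.18, interval −0.81 to 0.02) and a limma adjusted p of 0.825.

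Cd68, a lysosomal membrane protein, had 8.24 and 14.0 FPKM in the mutants and 15.6 and 13.8 FPKM in the controls. Mpeg1, which encodes the pore-forming protein perforin-2, had 18.6 and 29.9 FPKM in the mutants and 35.2 and 25.2 FPKM in the controls. In both genes mutant 2 lay between the controls, and the log2 changes were −0.43 (SE 0.26) and −0.33 (SE 0.27).

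The genes S100a8 and S100a9 encode the calcium-binding proteins of neutrophils that pair as calprotectin, and rested on 18 fragments or fewer in each library. S100a8 was listed at 0 in mutant 1 and stood at 1.77 FPKM in mutant 2, against 6.57 and 1.29 FPKM in controls 1 and 2. These values rest on 0, 5, 18 and 4 fragments in the same order. S100a9 was listed at 0 in mutant 1 and stood at 0.926 FPKM in mutant 2, against 1.91 and 1.06 FPKM in the controls, from 0, 4, 8 and 5 fragments. Mutant 2 and control 2 were alike to within a single fragment in both genes, so the log2 changes of −1.74 (SE 0.77) and −1.20 (SE 0.49) come from the zeros of mutant 1 and the higher level of control 1. Of the 15 other neutrophil genes, 14 were measured and 6 tested, 0 passed by limma (0 at an unadjusted p under 0.05), and Camp and Stfa1 were listed at 0 in all 4 libraries. The 14 summed to 16.4 and 30.9 FPKM in the mutants and 37.6 and 22.3 FPKM in the controls. Lcn2, an iron-scavenging protein that epithelium also makes, had 10.004 and 11.308 FPKM in the mutants and 16.103 and 6.495 FPKM in the controls. Retnlg, a resistin-like protein, had 1.44 and 9.54 FPKM in the mutants and 11.3 and 9.17 FPKM in the controls, so it was low in mutant 1 alone.

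Intracellular proteins of leukocytes held some of the wider differences. Lst1, a leukocyte transcript of the MHC region, had 6.25 and 11.3 FPKM in the mutants and 19.4 and 14.0 FPKM in the controls. Its log2 change of −0.93 (SE 0.29, interval −1.60 to −0.26) had the smallest unadjusted limma p of the 31 genes, 0.0128, with an adjusted p of 0.825, and mutant 1 rested on 9 fragments. Laptm5, a lysosomal protein of all leukocytes including B cells, had 19.3 and 32.5 FPKM in the mutants and 68.0 and 32.1 FPKM in the controls. Mutant 2 and control 2 differed by a ratio of 1.01, and control 1 was 2.12 times control 2. Aif1, a calcium-binding protein of macrophages that lies next to Lst1 on chromosome 17, had 10.7 and 20.1 FPKM in the mutants and 23.9 and 14.2 FPKM in the controls. Its log2 change was −0.31 (SE 0.33), and mutant 2 was 1.41 times control 2.

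Among the transcription factors, Irf8, which guides monocytes and dendritic cells and is also made in B cells, had 49.9 and 84.3 FPKM in the mutants and 83.0 and 71.9 FPKM in the controls. Batf3, required for cross-presenting dendritic cells, had 1.71 and 2.69 FPKM in the mutants and 5.95 and 3.05 FPKM in the controls. The groups did not overlap for Batf3, with a log2 change of −0.85 (SE 0.33, limma adjusted p = 0.825) that rests on 6 fragments in mutant 1. Zbtb46, a factor of classical dendritic cells and endothelium, was the single gene with a change above 0, at 0.818 and 0.642 FPKM in the mutants and 0.653 and 0.453 FPKM in the controls (log2 change 0.23, SE 0.29), from 9.05 fragments in mutant 1. Sfpi1, the PU.1 gene under its older symbol, had 6.87 and 13.5 FPKM in the mutants and 18.7 and 10.7 FPKM in the controls, with a log2 change of −0.53 (SE 0.35) and a limma adjusted p of 0.825. PU.1 thus held the same order of libraries as most of the listed genes.

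**Figure D4:**
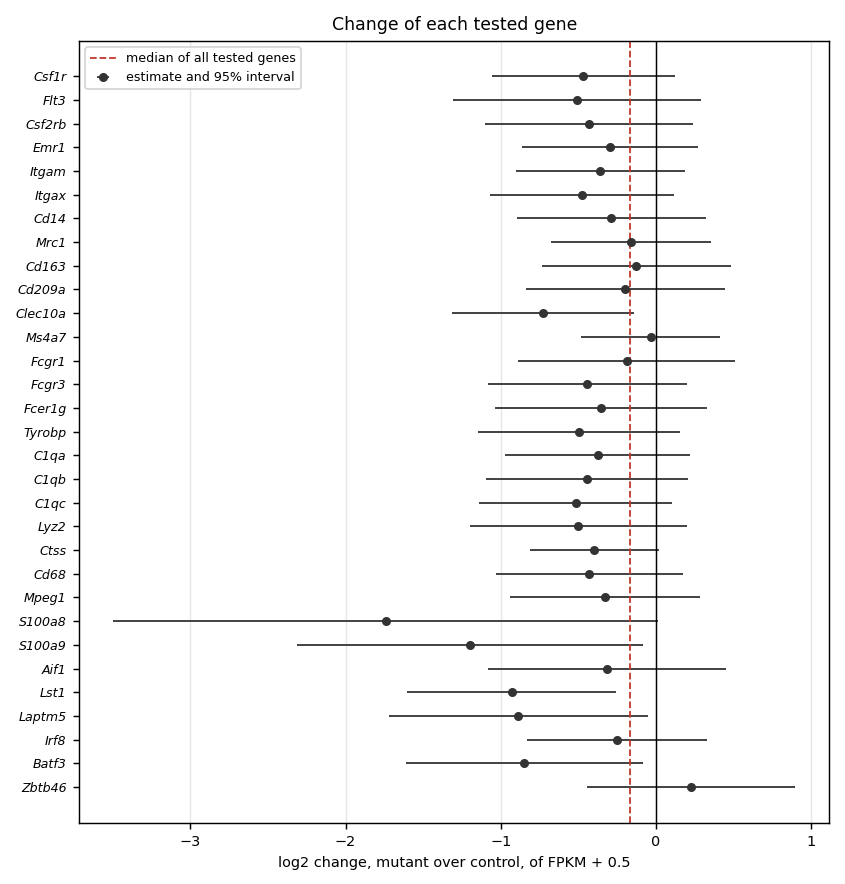
Log2 change of FPKM + 0.5, mutant over control, with its 95% limma interval for each of the 31 tested genes; the dashed line is the median of all tested genes, −0.17. All but Zbtb46 lie below 0, and the intervals of 26 genes hold 0.

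The 95% intervals bound what these 4 libraries could show. Intervals of 26 of the 31 genes held 0, and those of 0 genes reached a 2-fold higher level in the mutants. Intervals of 18 genes reached a 2-fold lower level, and those of 13 genes lay within 2-fold either way. On FPKM as deposited, a 2-fold lower level was thus not excluded for most of these genes. These intervals hold the offset between libraries, as the median log2 change of all genes was −0.17, beside 0.0052 after median ratio rescaling. Intervals after rescaling were not counted. With control 2 left out, 5 of the 31 genes passed by limma (S100a8, S100a9, Batf3, Lst1 and Laptm5), all lower in the mutants, where 1.95% of all genes were called lower, and with any other single library left out 0 passed. In the fit without control 2, control 1 is assumed to vary like the mutants. The list's median log2 change was −0.11 without mutant 1 and −0.16 without control 1, beside −0.07 and −0.14 for all tested genes, and it was −0.755 without mutant 2 and −0.65 without control 2, beside −0.28 and −0.20 for all tested genes.

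Other genes of the same pathways were compared through lists of partners, and none of their genes passed by limma. At an unadjusted limma p under 0.05 on FPKM as deposited, lower genes numbered 3 of 15 for the lysosome and oxidase, 3 of 16 for transcription factors, 3 of 14 for dendritic cells and 2 of 13 for complement, against 4.12% of all genes. They numbered 1 of 13 for ITAM signalling, 1 of 4 for Fc receptors, 1 of 11 for inflammatory products, and 0 for growth factors, monocyte entry and scavenger receptors, and 0 genes of these lists were higher (0.7% of all genes). The partner lists were not counted after rescaling, where 1.83% (median ratio) and 1.89% (quantile) of all genes were lower. Of 11 growth factors and receptors 9 were tested, with a median log2 change of −0.28, mutant 1 lowest in 7 (66.3% of all genes) and control 1 highest in 8 (45.6% of all); Csf2ra, the GM-CSF receptor alpha chain, had 8.81 and 12.4 FPKM in the mutants and 15.4 and 10.6 FPKM in the controls. Of the 13 tested kinases and other partners of ITAM signalling, mutant 1 was lowest in 11 and control 1 highest in 10, with the kinase gene Lyn at 23.0 and 29.1 FPKM in the mutants and 39.3 and 24.9 FPKM in the controls. All 13 complement genes beside C1q had a change below 0 (median −0.43), as did 82.6% of all genes, among them the C1 inhibitor gene Serping1 at 46.9 and 84.1 FPKM in the mutants and 102.7 and 78.5 FPKM in the controls. Of 15 genes of the phagocyte lysosome and oxidase, 8 had both mutants below both controls (35.1% of all genes), and Ctsd, the protease cathepsin D, had 144.4 and 171.8 FPKM in the mutants and 214.8 and 212.2 FPKM in the controls.

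Monocyte entry genes, 11 tested, had a median of −0.33, with the chemokine gene Ccl8 at 117.4 and 167.5 FPKM in the mutants and 206.3 and 183.6 FPKM in the controls. Scavenger and pattern receptors, 18 tested, had a median of −0.25, with Tlr2 at 29.5 and 41.7 FPKM in the mutants and 51.3 and 47.2 FPKM in the controls. The 4 tested Fc receptor genes had a median of −0.58. Further dendritic cell genes, 14 tested, had a median of −0.35 and summed to 380.8 and 478.0 FPKM in the mutants and 569.8 and 501 FPKM in the controls, and further myeloid transcription factors, 16 tested, one of −0.30. Inflammatory products that phagocytes can make went both ways, with 5 of 11 tested genes below 0 (82.6% of all genes) and a median of 0.02. Which cells of the bulk tissue made these transcripts was not tested. Nos2, the inducible nitric oxide synthase, had 32.5 and 52.3 FPKM in the mutants and 54.0 and 21.1 FPKM in the controls, and the interferon-induced chemokine gene Cxcl9 15.4 and 44.0 FPKM in the mutants and 29.6 and 20.9 FPKM in the controls. In both genes mutant 2 and control 1 were the higher pair, and the spread within each genotype covered the difference between them. The same held for the sum of the list, at 90.9 and 167.6 FPKM in the mutants and 169.7 and 95.4 FPKM in the controls. Of the 11 tested, 3 had both mutants below both controls (35.1% of all genes) and 1 had both above (3.39%).

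Markers of other cell types also differed between the libraries, some in the same order. B cell markers (14 genes) summed to 64.6 and 72.2 FPKM in the mutants, against 238.1 FPKM in control 1 and 72.6 FPKM in control 2. Blnk, the most abundant of them, had 43.5 and 56.2 FPKM in the mutants and 59.2 and 59.05 FPKM in the controls. Without Blnk, the other 13 summed to 21.2 and 15.95 FPKM in the mutants, against 179 FPKM in control 1 and 13.5 FPKM in control 2. Genes of all leukocytes (10 genes) summed to 178.8 and 264.2 FPKM in the mutants and 577.0 and 231.9 FPKM in the controls. All 10 were highest in control 1, as were 45.6% of all tested genes. T and NK cell markers (19 genes) summed to 136.5 and 154.6 FPKM in the mutants and 332.9 and 217.2 FPKM in the controls. Of the 19, 9 were lower at an unadjusted p under 0.05 by limma on FPKM as deposited, against 4.12% of all genes. That share was 1.83% after median ratio rescaling, where this list was not counted. After adjustment 0 were lower, against 0.0286% of all genes. Plasma cell markers (6 genes) summed to 876.4 and 835.3 FPKM in the mutants and 1571.7 and 841.5 FPKM in the controls. The 10 MHC class II genes, which macrophages, dendritic cells and B cells share, summed to 2952 and 6152 FPKM in the mutants and 5427 and 6255 FPKM in the controls, so mutant 1 was low and control 1 was not high. Mast cell and eosinophil markers summed to 37.3 and 22.8 FPKM in the mutants and 37.3 and 33.3 FPKM in the controls, with Mcpt4, Tpsab1, Cma1 and Epx at 0 in at least 1 library. The 5 red blood cell genes were lower in both mutants in sum, at 41.5 and 69.6 FPKM, against 96.7 and 165.8 FPKM in the controls, and the hemoglobin gene Hba-a1 had the log2 change −1.15 (SE 0.24, limma adjusted p = 0.447). Smooth muscle and fibroblast markers summed to 1732.5 and 2126.5 FPKM in the mutants and 2335.6 and 2077.4 FPKM in the controls, and endothelium markers to 29.5 and 36.4 FPKM in the mutants and 43.8 and 43.3 FPKM in the controls. Pax5 and Fcer2a of the B cell list were also at 0 in at least 1 library. The 32 myeloid genes summed to 1006.9 and 1577.7 FPKM in the mutants and 2008.5 and 1464.5 FPKM in the controls. The part of these cell types and of the lower depth of mutant 1 in the myeloid values was not tested.

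The genes differed in how far control 1 stood above control 2. Laptm5, Flt3 and Batf3 were at 2.12, 2.15 and 1.95 times control 2, and the complement chain C1qb at 1.61 times. Itgax, Ctss, Mrc1 and Cd163 were at 0.855, 0.961, 0.997 and 1.02 times, so the excess of control 1 was not shared by all the macrophage genes. The ratio of Laptm5 to Csf1r was 1.48 and 1.60 in the mutants and 2.60 and 1.64 in the controls, whereas that of Tyrobp to Csf1r was 3.03 and 3.04 in the mutants and 3.37 and 2.81 in the controls.

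**Figure D5:**
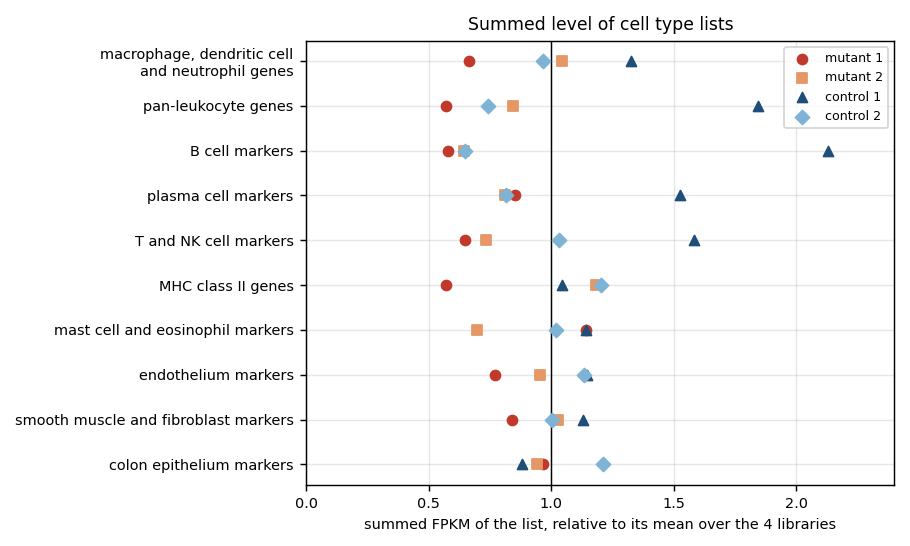
Summed FPKM of each gene list in each library, divided by the list's mean over the 4 libraries (a value of 1, vertical line); circles and squares are the mutants, triangles and diamonds the controls. Control 1 stands furthest right in every list but the MHC class II and epithelial ones, though narrowly in the mast cell and endothelium lists. Mutant 1 stands furthest left in every list but the plasma cell, mast cell and epithelial ones. In the B cell list this holds only with Blnk counted, since without it mutant 1 is above mutant 2 and control 2. The MHC class II and epithelial lists are highest in control 2.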

How the data were processed

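Total RNA of 4 colon libraries was sequenced after TruSeq RNA preparation, per the labels' protocols. Per the submitters' processing notes, bcl2fastq 1.8.4, TopHat, Cufflinks and DESeq were used on mm9; other versions are not given in the sources used here. Per the file headers, the authors deposited FPKM with a 95% interval for 23699 gene rows, the same with a coverage signal for 30028 isoforms, and a DESeq table. Per its header, the deposited table holds group means of normalized counts as a signal, the ratio of mutant over control, its log2 and p-values.

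Rows not OK in every library (306) were left out, rows of a symbol were summed, and genes averaging 0.5 FPKM or more were log2 transformed after adding 0.5 FPKM and compared under R 4.3.3 by limma 3.58.1, letting the variance follow the mean level, with Benjamini-Hochberg adjustment at 0.05. Count models were not fitted to FPKM. Fold changes on this scale understate those of low genes. With 2 libraries a group the smallest exact permutation p is 0.333, so none is given. Fragments behind a value come from the deposited interval, whose upper bound is taken to lie 2 Poisson errors above the value, and cover counting error only. Relative depth is the median ratio of coverage to FPKM. Coordinates are on mm9, counted from 1, and promoters on GRCm38.p6; sharing of 50-base stretches was counted in GENCODE vM1 transcripts, the longest per gene, and the authors' treatment of shared reads was not used here. For 5 genes with 2 isoforms the gene value is given.

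The genes, lists and tests were chosen with earlier results of these data known, and the comparison of mutant 2 with control 2 and the PU box search were chosen after seeing the data. All listed genes are named; of each partner list, examples come from its 2 most abundant genes, and cell type lists are given by their sums.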

Additional observations from a re-analysis of the deposited data

How the results depend on the processing

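The 9 genes past the threshold over all genes became 2 with no filter on low values, 3 after median ratio rescaling, 2 after quantile normalization and 195 with the replicate number as a block, and ran from 8 to 362 with a library left out in turn. The deviations of control 1 and mutant 1 from their group means correlated at −0.00217 across genes. With 2 libraries a group, this value cannot decide whether libraries sharing a number form a pair, which was not tested. Of the 31 myeloid genes, 3 passed with the replicate block (S100a8, S100a9 and Laptm5) and from 0 to 5 with a library left out, against 0. Their median log2 change ran from −0.755 to −0.11 with a library left out and was 0.14 for mutant 2 against control 2 only, a comparison of single libraries with no test. Genes with both mutants below both controls numbered from 6 to 28 with a library left out. The 28 came without mutant 2, and mutant 1 was below both controls in 73.8% of all tested genes. Genes with both mutants above both controls numbered 1 after either rescaling and from 0 to 3 with a library left out. For mutant 2 against control 2 only they numbered 24, where 44.1% of all tested genes were higher in mutant 2. The share of all genes was not counted for the other settings.

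Changes turned above 0 for Mrc1, Cd163 and Ms4a7 after median ratio rescaling (0.0099, 0.031 and 0.15), after quantile normalization (0.035, 0.079 and 0.12, with Fcgr1 at 0.015) and in the authors' deposited table (0.0335, 0.0913 and 0.0932). With a library left out, the log2 change ran from −0.62 to 0.027 for Emr1, −0.58 to 0.0097 for Cd14, −0.36 to 0.041 for Mrc1, −0.42 to 0.17 for Cd163, −0.45 to 0.052 for Cd209a, −0.52 to 0.14 for Fcgr1, −0.66 to 0.0045 for Mpeg1, −0.78 to 0.069 for Fcer1g, −0.75 to 0.12 for Aif1, −0.63 to 0.12 for Irf8 and −0.22 to 0.15 for Ms4a7. The other pseudocounts, the filter at 2 FPKM, the row rules and the variance trend turned no gene. The causes were not tested. A library left alone in its group is assumed to vary like the others. Depth limits S100a8, S100a9, Siglech, Batf3, Lst1 and Zbtb46 most, each with under 10 fragments in mutant 1.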
